A study of Zea mays with 192 samples.

Results

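The 24-PHAS loci are the 36 rows of the table whose names start with 24PHAS, out of 41187 rows in all. They were chosen by name alone, with no measured value in the rule. The cells were leaf protoplasts, plant cells freed of their walls, of the wild-type maize inbred B73. Etiolated leaves came from many dark-grown seedlings (25 °C) at an age of 10 to 12 days. The pre-meiotic pool (96 cells) had received a mix of constructs labelled as pre-meiotic transcription factors, and the bHLH pool (96 cells) a mix for basic helix-loop-helix factors. Both pools shared the genotype and the leaf source and were transfected, and no untransfected protoplasts were analysed here. Which constructs of its mix a cell took up is not labelled, so cells of a pool may differ in them.

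PHAS loci are transcribed into long non-coding RNAs that are capped and polyadenylated like messenger RNA. In maize anthers the 24-nucleotide class is cut by an Argonaute guided by the microRNA miR2275, copied into double strands by an RNA-dependent RNA polymerase and diced by DCL5 at regular steps. The resulting small RNAs are abundant in the tapetum and in the meiotic cells, and the bHLH factor Ms23 is known to be needed for their production. The design text gives the purpose: factors that may switch on phasiRNA genes of the anther were expressed in leaf cells. CEL-seq2 counts the 3' end of each polyadenylated molecule by a unique molecular identifier (UMI). What was measured is thus long RNA assigned to these rows and not the small RNA. That all these UMIs come from PHAS precursors was not tested. Each molecule is counted at its end, so UMIs need no correction for length. The loci carry numbers only, and neither positions nor sequences of them were used.

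The pre-meiotic pool held 3029855 UMIs and the bHLH pool 3274116, with 953 to 88243 and 4699 to 148894 per cell. With fewer than 2000 genes detected there were 22 pre-meiotic and 2 bHLH cells. Separate transfections are not named, and each pool counts as 1 replicate. No test between pools was possible, and every interval below is a 95% interval of counting error only. Levels are in TPM, UMIs per 1000000 UMIs of the cell. Among leaf markers ppdk1 (GRMZM2G306345), a C4 mesophyll gene, was detected in 73 and 70 cells. The other matched mesophyll and bundle sheath markers were sparser. The mesophyll genes pep1 and mdh6 were seen in 16 and 7 and in 11 and 3 cells. Of the bundle sheath genes, me3 was seen in 24 and 25 cells, and the rbcS rows in 1 and 0 and in 3 and 0. Of the epidermis genes, ocl1 was seen in 37 and 53 cells and gl1 in 3 and 3. The vascular gene sut1 was seen in 7 and 6 cells. Of the tapetum markers, ms8 (GRMZM2G119265) and ms26 (GRMZM2G091822) were at 0 UMIs among pre-meiotic cells and at 1 UMI each among bHLH cells. The 8 construct rows of Ms23, Ms32, bHLH51 and bHLH122 had 6591 UMIs in the bHLH pool and 35 in the other, 0.528% of both together. If these constructs were in the bHLH mix alone, that share is the level of stray UMIs on these 8 rows. It does not hold for all rows. In the pre-meiotic and the bHLH pool, ms23 (GRMZM2G021276) had 0 and 2641 UMIs and ms32 (GRMZM2G163233) 1 and 4834. ocl4 (GRMZM2G123140), an epidermis gene that also has a construct, had 1946 and 0.

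UMIs on the 24-PHAS rows were few in both pools, and the 2 pools carried nearly the same amount. All 36 rows together held 883 UMIs in the pre-meiotic pool and 983 in the bHLH pool, 0.0291% and 0.0300% of all UMIs. Per cell, their summed level ran from 0 to 1095 TPM around a median of 253 TPM in the pre-meiotic pool, and the cell at 1095 TPM had 5 24-PHAS UMIs of 4566. In the bHLH pool it ran from 0 to 761 TPM around a median of 298 TPM. The ranges overlapped almost wholly. The ratio of pooled TPM, bHLH over pre-meiotic, was 1.03 (0.940 to 1.13), and a 2-fold difference in either direction lies outside this counting interval. The ratio of mean levels, also 1.03, was 0.921 with the most abundant row of the table left out of the totals and 0.959 in cells of at least 2000 genes, so its direction is not settled. For the 21-nucleotide class, with 44 rows, the same ratio was 0.892 (0.763 to 1.04), on 333 and 321 UMIs.

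A handful of loci carried the class. 24PHAS_NO166 alone held 56.7% of the 24-PHAS UMIs in the pre-meiotic pool and 61.6% in the bHLH pool, and 24PHAS_NO63 held 24.7% and 18.5%. 24PHAS_NO269 followed with 7.70% and 7.73%, 24PHAS_NO156 with 4.53% and 5.80%, and 24PHAS_NO144 with 2.49% and 2.64%. The order of these 5 loci was the same in both pools. The remaining 31 rows shared 34 and 36 UMIs.

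**Figure D1:**
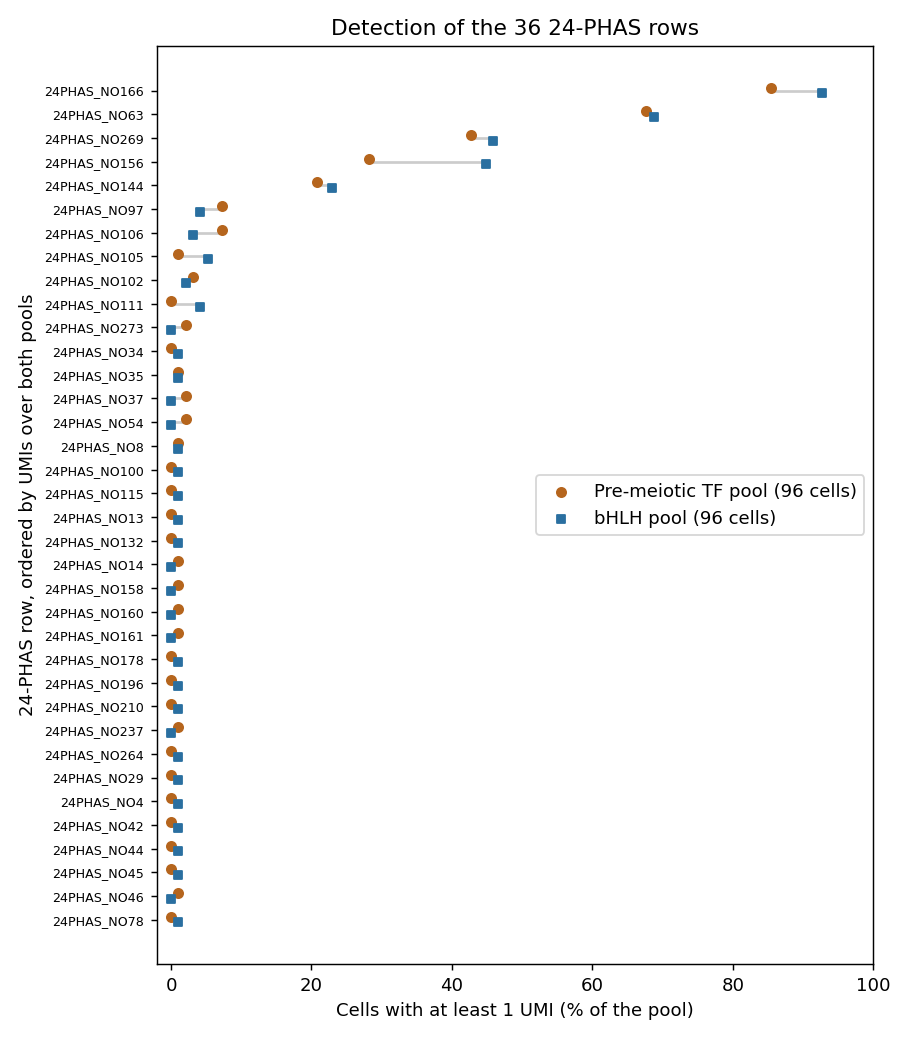
Share of cells with at least 1 UMI (x axis, percent of 96 cells in each pool) for the 36 24-PHAS rows (y axis, ordered by UMIs over both pools), with circles for the pre-meiotic pool and squares for the bHLH pool. The 5 rows at the top stand apart from the other 31, and 24PHAS_NO166 reaches 85.4% and 92.7%.

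24PHAS_NO166 was the locus found in most cells. It had a UMI in 82 of 96 cells of the pre-meiotic pool (85.4%, 76.7% to 91.8%) and in 89 of 96 of the bHLH pool (92.7%, 85.6% to 97.0%). Its level in the pre-meiotic pool ran from 0 through a median of 143 TPM to 914 TPM, with a mean of 169 TPM. In the bHLH pool it ran from 0 through 164 TPM to 586 TPM, with a mean of 195 TPM. Cells of both pools covered the same span, apart from 2 shallow pre-meiotic cells at 876 and 914 TPM, with 4566 and 2189 UMIs in all. Summed UMIs, 501 and 606, gave a ratio of 1.12 (0.993 to 1.26), an interval that includes equality. By UMIs over both pools it ranked 348 of 41187 rows, so it had more UMIs than most rows of the table. When every cell was thinned to 5000 UMIs, the expected share was 51.9% over 86 cells and 59.0% over 95 cells, with overlapping intervals (40.9% to 62.8%, and 48.4% to 69.0%).

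24PHAS_NO63 had a UMI in 65 pre-meiotic cells (67.7%, 57.4% to 76.9%) and in 66 of the bHLH pool (68.8%, 58.5% to 77.8%). Its median level was 58.0 TPM in the pre-meiotic pool, with a range of 0 to 569 TPM, and 49.5 TPM in the bHLH pool, with a range of 0 to 190 TPM. The cells overlapped. The cell at 569 TPM had 1759 UMIs in all, and the next highest pre-meiotic cell lay at 254 TPM. It was the sole one of the 5 loci whose counting interval left out equality: 218 against 182 UMIs gave a ratio of 0.773 (0.631 to 0.945). The mean levels were 70.8 and 55.6 TPM. This interval covers counting error in 1 sample of each pool, and no replicate shows how far such a ratio moves between transfections.

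24PHAS_NO269 had a UMI in 41 and 44 cells (42.7%, 32.7% to 53.2%, and 45.8%, 35.6% to 56.3%), and its median was 0 TPM in both pools. The highest cells reached 196 TPM in the pre-meiotic pool and 116 TPM in the bHLH pool, and the means were 22.7 and 20.6 TPM. With 68 and 76 UMIs the ratio was 1.03 (0.736 to 1.46), so summed UMIs and mean levels leaned in opposite directions. 24PHAS_NO156 differed most in the share of cells, at 27 of 96 (28.1%, 19.4% to 38.2%) and 43 of 96 (44.8%, 34.6% to 55.3%). Its UMIs, 40 and 57, gave a ratio of 1.32 (0.865 to 2.03) that includes equality. Its median was 0 TPM in both pools, with a highest cell of 254 TPM in the pre-meiotic pool and 165 TPM in the bHLH pool. After thinning to 5000 UMIs the gap in the shares narrowed to 7.08% (2.66% to 14.7%) and 9.26% (4.28% to 17.0%).

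24PHAS_NO144 lay just under the limit of 25% of cells in both pools that defined a well-detected locus, and 24PHAS_NO156 just above it. It had 22 UMIs in 20 cells of the pre-meiotic pool and 26 UMIs in 22 cells of the bHLH pool. The ratio was 1.09 (0.596 to 2.02), and no cell held more than 3 of its UMIs. The mean levels were 7.38 and 8.75 TPM.

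**Figure D2:**
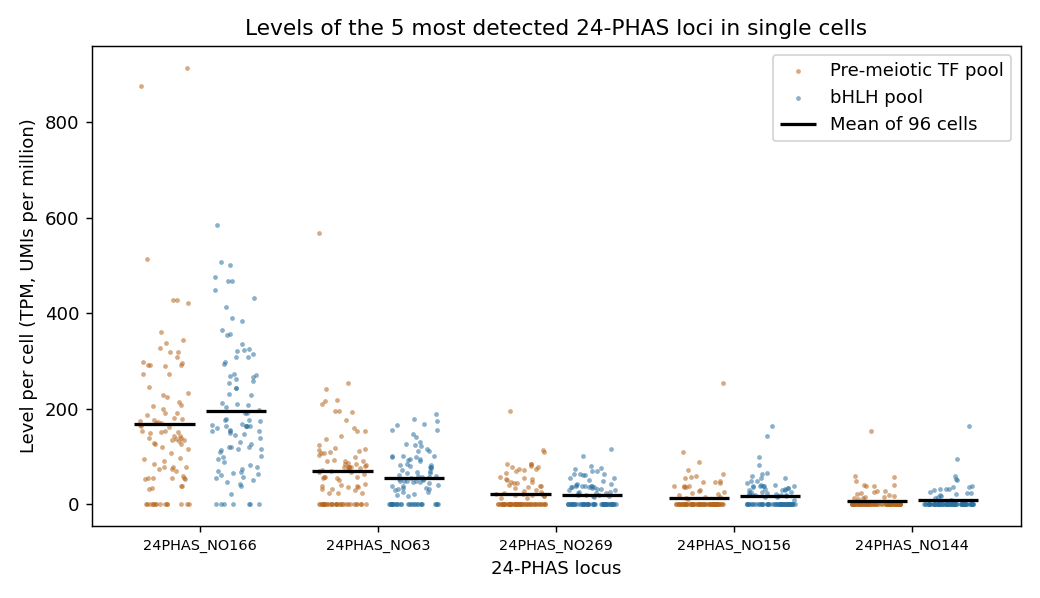
Level in each cell (y axis, TPM) of the 5 most detected 24-PHAS loci (x axis), with 1 point per cell and a black line at the mean of the 96 cells of a pool. The points of the pools overlap at every locus, and means fall from 169 and 195 TPM at 24PHAS_NO166 to 7.38 and 8.75 TPM at 24PHAS_NO144.

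Only these 5 of 36 rows reached the 40 UMIs over both pools that were asked for a comparison by size, and 0 of 5 differed by more than 2-fold. Among all 10935 rows that reached it, 23.1% differed by that much. Their median log2 ratio was 0.13, beside 0.18 for all rows with UMIs in both pools (quartiles -0.37 and 0.65), and their log2 ratios ran from -0.37 to 0.40. Each of the 5 thus lay between the quartiles. Of the 21-PHAS rows, 5 reached the minimum and 1 differed by more than 2-fold.

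The other 31 loci were at the edge of detection. Over both pools 20 of them had 1 UMI, 6 had 2 UMIs and 5 had between 4 and 13. Of all rows of the file, 23.5% had 1 UMI, against 55.6% of the 24-PHAS rows and 52.3% of the 21-PHAS rows. Of the 36 rows, 11 had a UMI in both pools, 9 in the pre-meiotic pool alone and 16 in the bHLH pool alone. The 20 rows with 1 UMI could lie in 1 pool only, and the share for all rows is not given here. The 25 rows of 1 pool alone were seen on so few molecules that they do not separate the pools. A row at 0 may still be present at up to 0.990 TPM in the pre-meiotic pool or 0.916 TPM in the bHLH pool (3 UMIs over the pool).

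The highest of the sparse rows was 24PHAS_NO97, with 9 and 4 UMIs, a ratio of 0.411 (0.0926 to 1.47). 24PHAS_NO106 had 7 and 3 UMIs (0.397, 0.0662 to 1.74), each in a cell of its own. 24PHAS_NO105 leaned the other way, with 1 and 5 UMIs (4.63, 0.518 to 219). 24PHAS_NO111 had 4 UMIs in 4 cells of the bHLH pool and none in the pre-meiotic pool, where 0 of 96 cells allows a share of cells with a UMI of up to 3.12% (3 cells of 96). This limits detection and not expression. 24PHAS_NO102 had 3 and 2 UMIs. None of the ratio intervals of these rows left out equality. A UMI on any of the 31 rows was seen in 25 cells of each pool (26.0%, 17.6% to 36.0%). 24PHAS_NO158, 24PHAS_NO160 and 24PHAS_NO161 each had their sole UMI in the same cell of the pre-meiotic pool. That cell had 86977 UMIs and UMIs on 9 loci, more loci than any other cell. This set of loci was singled out after its values were seen.

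Deeper cells showed more loci, while the level of the class differed little with depth. The 96 cells of a pool were split by total UMIs into the 32 shallowest, the 32 middle and the 32 deepest. In the pre-meiotic pool the median number of loci was 1, 2 and 4 in that order, and in the bHLH pool 2, 3 and 4. The summed 24-PHAS level of the same sets was 299, 288 and 292 TPM in the pre-meiotic pool, with counting intervals that overlap (239 to 368, 254 to 326 and 268 to 317). In the bHLH pool it was 332, 310 and 290.1 TPM (275 to 397, 275 to 347 and 267 to 315). Across the 96 cells of a pool, the number of loci followed log10 of total UMIs with Pearson's r of 0.59 and 0.66 (Spearman's rho 0.59 and 0.68). Without the 2 cells farthest from the median depth, r was 0.56 and 0.64.

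**Figure D3:**
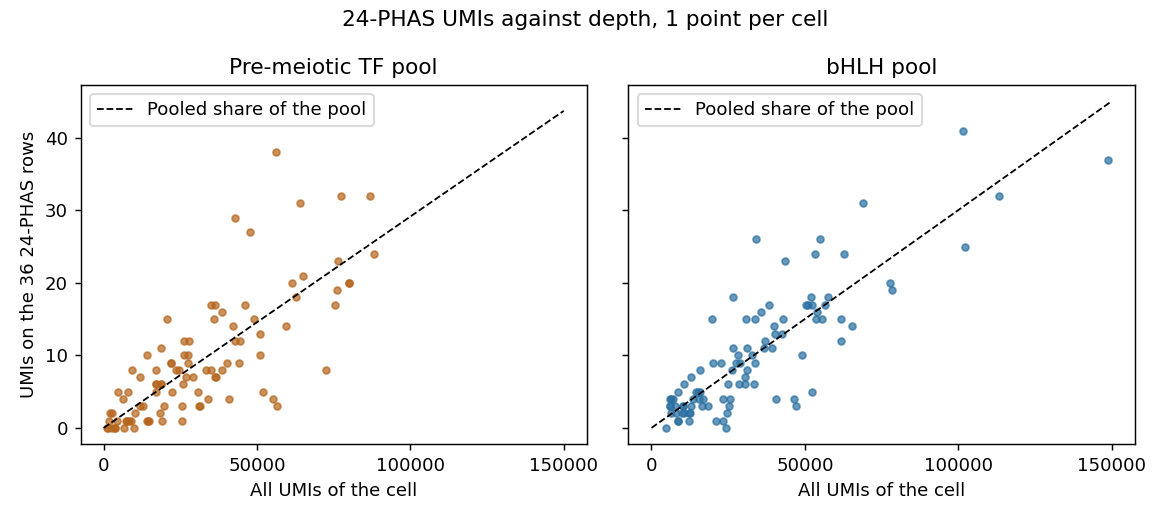
UMIs on the 36 24-PHAS rows (y axis) against all UMIs of the cell (x axis), 1 point per cell, with the pooled share of each pool as a dashed line (291 and 300.2 TPM). Points lie on both sides of the line at all depths, and the cell with most 24-PHAS UMIs has 38 in the pre-meiotic pool and 41 in the bHLH pool.

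At least 1 24-PHAS UMI was seen in 89 and 94 of 96 cells. All 7 cells of the pre-meiotic pool without one had fewer than 2000 genes (605 to 1860) and 953 to 9872 UMIs. In the bHLH pool the 2 such cells had 4699 and 24346 UMIs. With cells of at least 2000 genes alone, the shares were 100% and 98.9%. A cell had UMIs on a median of 3 loci in either pool, on a mean of 2.78 and 3.11, and on at most 9 and 8. At least 3 loci were seen in 50 cells of the pre-meiotic pool (52.1%, 41.6% to 62.4%) and in 59 of the bHLH pool (61.5%, 51.0% to 71.2%). After thinning to 5000 UMIs the expected mean number was 1.10 over 86 cells and 1.12 over 95 cells. In cells of at least 2000 genes the order of the pools turned, with means of 3.31 and 3.16 loci. At 5000 UMIs per cell the expected share of cells with any 24-PHAS UMI was 71.3% (60.6% to 80.6%) and 76.5% (66.7% to 84.6%).

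**Figure D4:**
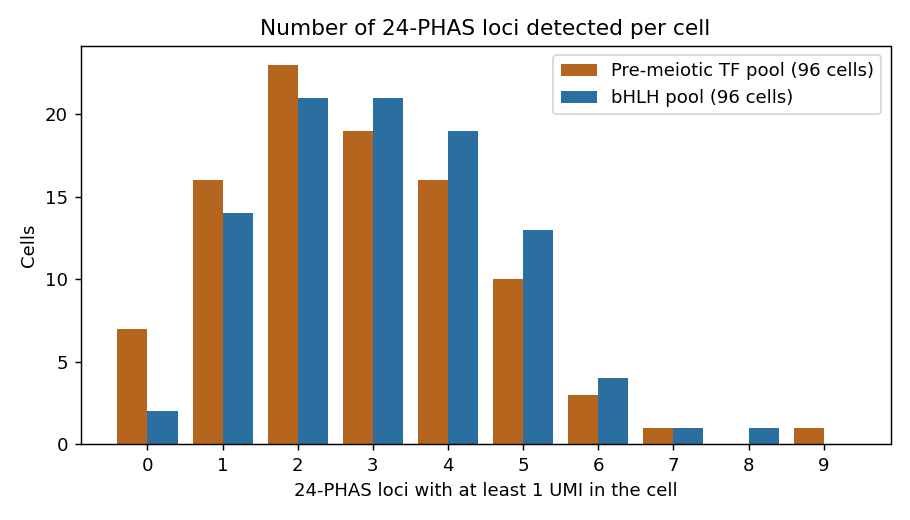
Number of cells (y axis) by the number of 24-PHAS loci with at least 1 UMI (x axis), with 96 cells in each pool. Both pools peak at 2 or 3 loci, with 7 and 2 cells at 0 and few cells above 5.

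Cells with 24-PHAS signal almost always had 24PHAS_NO166. It was not detected in 7 cells with another locus in the pre-meiotic pool and in 5 of the bHLH pool, and these held at most 2 and 4 24-PHAS UMIs. A sole locus was seen in 16 and 14 cells, and it was 24PHAS_NO166 in 9 and 12 of them. Its share nevertheless varied between cells. Among cells with at least 10 24-PHAS UMIs (34 and 42), it took from 13.3% to 90.0% of them in the pre-meiotic pool (median 51.7%) and from 18.2% to 90.9% in the bHLH pool (median 61.8%). The 4 well-detected loci occurred together in 16 and 22 cells, and all 5 in 7 and 6 cells. No cell dominated a sum: the cell with most 24-PHAS UMIs held 4.30% and 4.17% of its pool's.

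The spread of 24PHAS_NO166 between cells was somewhat above that of counting. At 5000 UMIs per cell its expected variance over mean was 1.19 in the pre-meiotic pool and 1.17 in the bHLH pool, where 1 is the value for counting alone. The 6321 gene models with a UMI in 25% or more of the cells of each pool had a median of 1.07 (quartiles 1.02 and 1.15) and 1.04 (0.998 and 1.10). These models were not matched to 24PHAS_NO166 by mean, so they do not show whether its spread was unusual for its level. 24PHAS_NO63 had 1.08 and 0.978, 24PHAS_NO269 0.998 and 0.990, and 24PHAS_NO156 1.11 and 0.937. The ratio nears 1 as the mean falls, and mean UMIs at this depth were 0.803 and 0.987 for 24PHAS_NO166 but 0.349 and 0.281 for 24PHAS_NO63 and lower for the others, so these values do not rank the loci by spread.

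At full depth, loci were found together in somewhat more cells than their single shares give. For the 10 pairs of the 5 loci, the number of cells with both was set beside the product of the 2 shares. 24PHAS_NO166 and 24PHAS_NO63 were found together in 61 cells of the pre-meiotic pool, with 55.5 from the product, and in 63 of the bHLH pool, with 61.2 from the product. 24PHAS_NO269 and 24PHAS_NO156 were found together in 17 cells (11.5 from the product) and in 24 cells (19.7). 24PHAS_NO156 and 24PHAS_NO144 were found together in 10 cells against 5.62 in the pre-meiotic pool, the highest ratio there at 1.78, and in 12 against 9.85 in the bHLH pool. All 27 pre-meiotic cells with 24PHAS_NO156 and all 20 with 24PHAS_NO144 also had 24PHAS_NO166. The ratio to the product was above 1 for 10 of 10 pairs in each pool, with medians of 1.24 and 1.12. For the same 10 pairs in each pool, the product lay inside the counting interval of the share of cells with both. That interval takes no account of the 2 single shares, so it cannot decide whether a pair exceeds its product. At full overlap, as for 24PHAS_NO156 with 24PHAS_NO166 in the pre-meiotic pool, the product of 24.0% still lay inside 19.4% to 38.2%. Deep cells show more of every locus, and at 5000 UMIs per cell 8 and 4 of 10 pairs were above 1, with medians of 1.19 and 0.937.

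Levels of the loci were weakly related over cells. All correlations over cells given here use log2(TPM + 10) in cells with at least 5000 UMIs (86 and 95) of 1 library each, and are descriptions without a test. Between 24PHAS_NO166 and 24PHAS_NO63 Pearson's r was 0.35 in the pre-meiotic pool and 0.17 in the bHLH pool (Spearman's rho 0.32 and 0.17). Between 24PHAS_NO63 and 24PHAS_NO156 it was 0.31 and 0.01, and between 24PHAS_NO166 and 24PHAS_NO269 0.14 and -0.13. Between 24PHAS_NO63 and 24PHAS_NO269 it was lower in the pre-meiotic pool, at 0.08, than in the bHLH pool, at 0.24. The summed 24-PHAS and 21-PHAS levels had r of 0.31 and 0.16 (rho 0.49 and 0.21). The median r between the summed 24-PHAS level and any of the 6321 gene models was 0.26 in the pre-meiotic pool and 0.09 in the bHLH pool, so r of this size in the pre-meiotic pool is common in the table.

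The most abundant row ran against the class. GRMZM2G028910, a model without a name in the reference table, held 33.3% of all UMIs in the pre-meiotic pool and 23.8% in the bHLH pool. Its share of a cell's UMIs and the log2 24-PHAS level had r of -0.68 and -0.43 (rho -0.76 and -0.47). TPM is a share of the cell's total, so a larger share of this row leaves less for all others. With it left out of the totals r was -0.47 and -0.32 (rho -0.54 and -0.33).

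Construct level and 24-PHAS level showed little relation in the bHLH pool. The summed construct rows had a median of 277 TPM in the pre-meiotic pool and 1988 TPM in the bHLH pool, while the 24-PHAS medians were 253 and 298 TPM. Over cells of the bHLH pool, 24-PHAS and construct levels had r of 0.09 (rho -0.01, and r -0.05 without the 2 cells farthest from the median construct level). In the pre-meiotic pool r was 0.30 (rho 0.43, and r 0.34 without such cells), close to the median gene model's 0.26. ms23 (GRMZM2G021276), the tapetal bHLH gene, had a mean of 836 TPM in the bHLH pool and r of -0.04 with the 24-PHAS level there. ms32 (GRMZM2G163233), another anther bHLH gene, had a mean of 1581 TPM and r of 0.04. Among pre-meiotic cells ms23 was at 0 UMIs and ms32 at 1. RNA of a construct may be counted on the row of its gene model, which was not tested.

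**Figure D5:**
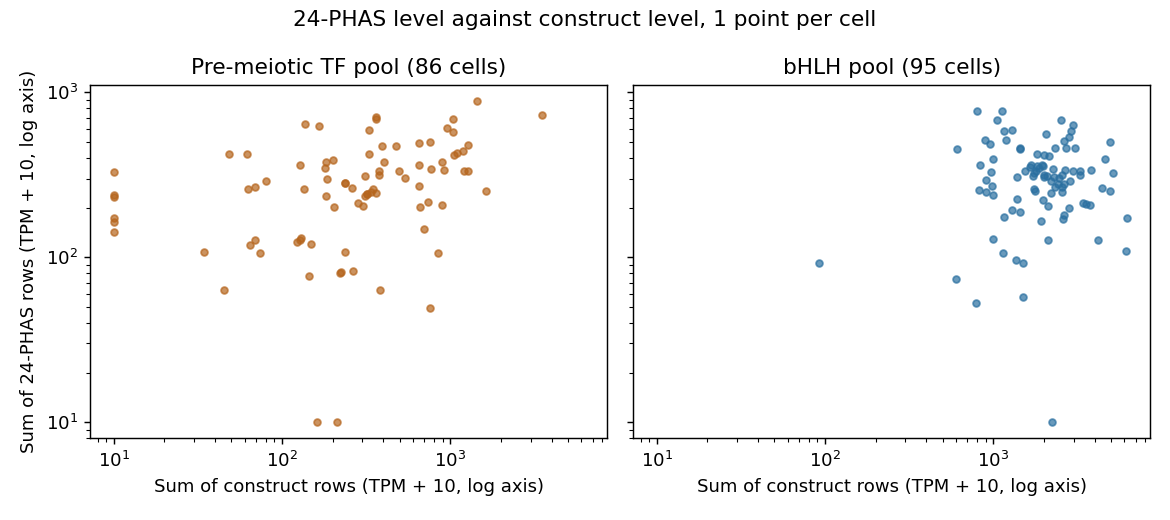
Summed 24-PHAS level (y axis, TPM + 10, log axis) against summed level of all construct rows (x axis, TPM + 10, log axis) in cells with at least 5000 UMIs, 86 in the pre-meiotic pool and 95 in the bHLH pool. The bHLH cells lie mostly further right, around a median of 1988 TPM over all cells, and overlap with pre-meiotic cells that reach 3470 TPM of constructs. Points at the left edge have no construct UMI.

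Small RNA genes were sparse, apart from dcl1, which was seen in 28 pre-meiotic and 69 bHLH cells. Of the list of small RNA genes, 9 models matched by name, and 3 reached the 40 UMIs: 2 were more than 2-fold higher in the bHLH pool and 0 lower, beside 12.5% and 10.6% of all rows tested. dcl1 (GRMZM2G040762), the Dicer-like gene of microRNA maturation, had 36 and 164 UMIs, a ratio of 4.22 (2.92 to 6.23). argonaute1 (GRMZM2G162525), whose product binds small RNAs, had 15 and 38 UMIs, a ratio of 2.34 (1.26 to 4.59), but closer mean levels of 7.70 and 10.3 TPM. The pre-meiotic mean includes a shallow cell at 381 TPM, from 1 UMI of 2622. dcl4 (GRMZM2G160473), whose product dices the 21-nucleotide class, had 35 and 31 UMIs (0.820, 0.489 to 1.37). Of the other models named dcl4, GRMZM2G050882 had 12 and 12 UMIs and GRMZM2G024466 had 2 and 1. rdr6 (GRMZM2G145201), the polymerase that makes the double strand, had 9 and 6 UMIs. lbl1 (GRMZM2G020187), the maize SGS3 that works with rdr6, had 1 and 1. mop1 (GRMZM2G042443), an RNA-dependent RNA polymerase gene of heterochromatic siRNAs, had 4 and 2 UMIs, and argonaute6 (GRMZM2G432075) had 2 and 0. No row was matched to dcl5 by name. With the summed 24-PHAS level, dcl1 had r of 0.18 and 0.17, and dcl4 (GRMZM2G160473) 0.34 and 0.11.

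Gene models that followed the loci in both pools did so weakly. For each locus the models were ranked by the lower of their 2 r. For the summed level, the highest were sam2 (GRMZM2G154397), which encodes an S-adenosylmethionine synthetase, at 0.43 and 0.48, TPS9 (GRMZM2G122231) at 0.50 and 0.43, and GRMZM2G144153 at 0.46 and 0.43. The proteinase inhibitor gene MPI (GRMZM2G028393) had 0.52 and 0.42, and GRMZM2G076062 0.43 and 0.42. Of 6321 models, 7 exceeded 0.4 in both pools. At the other end lay GRMZM2G028910 (-0.59 and -0.42), GRMZM2G049211 (-0.40 and -0.36) and GRMZM5G806488 (-0.41 and -0.34), which had mean levels of at least 18985 TPM.

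For 24PHAS_NO166 the leading models were GRMZM2G102471 (0.42 and 0.40), GRMZM2G165511 (0.38 and 0.41), a ubiquitin gene (GRMZM2G419891, 0.41 and 0.38), the enolase gene eno1 (GRMZM2G064302, 0.43 and 0.38) and cki2 (GRMZM2G101613, 0.40 and 0.37). For 24PHAS_NO63 they were the ribosomal protein gene rps6 (GRMZM2G054136, 0.44 and 0.39), GRMZM2G045070 (0.55 and 0.38), GRMZM2G064136 (0.42 and 0.37), GRMZM2G106424 (0.37 and 0.36) and GRMZM2G102596 (0.40 and 0.35). The 2 loci shared none of these 5 models. Lists this short, drawn from so many models, would seldom overlap, so this does not show that the loci differ. Against 24PHAS_NO166, besides GRMZM2G028910, lay GRMZM2G100700 (-0.32 and -0.22) and GRMZM2G407837 (-0.39 and -0.22). Against 24PHAS_NO63, besides the same row, lay GRMZM2G158485 (-0.28 and -0.22) and GRMZM2G331795 (-0.28 and -0.21).

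For 24PHAS_NO269 the highest models were GRMZM2G101408 (0.35 and 0.37), GRMZM2G038356 (0.34 and 0.36), the ascorbate peroxidase gene apx2 (GRMZM2G140667, 0.34 and 0.33), AC233910.1_FG008 (0.36 and 0.33) and GRMZM2G010823 (0.32 and 0.32). The lowest were GRMZM2G009555 (-0.19 and -0.23), GRMZM5G806488 (-0.18 and -0.25) and GRMZM5G815325 (-0.22 and -0.16). For 24PHAS_NO156 they were AC215244.3_FG002 (0.39 and 0.42), GRMZM2G171664 (0.43 and 0.35), GRMZM2G132519 (0.32 and 0.34), GRMZM2G145794 (0.31 and 0.35) and GRMZM2G587327 (0.30 and 0.37). The lowest were GRMZM2G049211 (-0.20 and -0.19), GRMZM2G344259 (-0.31 and -0.18) and GRMZM5G806488 (-0.24 and -0.18). With so few UMIs per cell on these loci, values of this size single out no model: over the 6321 models, r with a locus in 1 pool and r in the other had a correlation across genes of 0.06 to 0.15 for the 4 loci and of 0.25 for their sum. In 1 draw thinned to 5000 UMIs, the top model of each of the 4 loci and of the sum had r of 0.06 to 0.25.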

How the data were processed

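Single protoplasts were profiled by CEL-seq2, per the labels' protocols. HISAT2, SAMtools and UMI-tools with the build B73 RefGen_v3 are named, per the submitters' processing notes. Their versions, and any annotation, strand, multimapping or cell filter, are not stated in these notes. The deposited values are named TPM but are a signal of another scale, since their sums per cell run from 65502 to 10967874. The cells' totals had been recycled down the rows. Once this was undone, 1001042 of 1001042 nonzero values came out whole (within 0.001 UMI), and recovered sums matched the divisors within 2.51e-05 UMI. TPM was recomputed per cell. The design had no count test, and none was run.

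Groups came from the titles. All 192 cells were kept, all distinct. No doublet caller was run. Shares have exact Clopper-Pearson 95% intervals and ratios of summed UMIs exact binomial ones. Thinned values are expectations over all subsets of 5000 or 2000 UMIs per cell, leaving out 10 and 1, or 3 and 0, cells, and thinned correlations use 1 draw. Named loci had a UMI in at least 25% of cells of both pools (well detected) or 10% of 1 pool. For each well-detected locus and the sum, the 5 models with the highest lower r and the 3 with the lowest higher r were named. Members and lists were chosen with earlier results of these data known. Names came from the table of Zm-B73-REFERENCE-NAM-5.0, which matched 16091 IDs. The C4 mesophyll, bundle sheath, epidermis, tapetum and vascular lists matched 3, 3, 3, 2 and 1 rows. Models named PDK1 that are not the dikinase were left out. Summed UMIs of these lists were 354 and 319, 45 and 36, 2016 and 106, 0 and 2, and 7 and 13, and ocl4 (GRMZM2G123140), a factor with a construct, made 1946 of the 2016. The recovery and the correlation ranking were tested on simulated data (Python 3.11.15, numpy 2.4.6, pandas 2.3.3, scipy 1.17.1).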

Additional observations from a re-analysis of the deposited data

How the results depend on the processing

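No paired analysis was possible because protoplast numbers only count cells and no result comes from a test. The mean summed 24-PHAS level was 299 and 309 TPM in the pre-meiotic and the bHLH pool, a ratio of 1.03. With the deposited values as they stand it was 712 and 540.3, a ratio of 0.759, because most values were then divided by another cell's total, and the log2 ratio of 24PHAS_NO63 went from -0.30 to -1.57. With GRMZM2G028910 left out of the totals it was 423 and 390 TPM, a ratio of 0.921. With cells of at least 2000 genes alone the pre-meiotic value was 323 TPM, and the ratio was 0.959. The share of cells with a 24-PHAS UMI, 92.7% and 97.9%, was 71.3% and 76.5% at 5000 UMIs and 42.5% and 45.1% at 2000 UMIs per cell. In the pre-meiotic pool it was 100% with cells of at least 2000 genes alone, and 81.2% over all 96 cells when 2 UMIs were asked. Rows with a UMI, 20 and 27, fell to 6 and 6 when 2 UMIs in a cell were asked, to an expected 9.69 and 9.47 at 5000 UMIs and to 7.26 and 6.67 at 2000 UMIs. The mean number of loci, 2.78 and 3.11, was 1.12 in the bHLH pool at 5000 UMIs and 0.524 and 0.534 at 2000 UMIs, since fewer molecules are left. Of 148 other values for single loci, pairs and gene models under the alternatives, 106 stayed within their margin and 42 moved beyond it. The log2 ratio of 24PHAS_NO269 changed sign, from -0.10 to 0.03 on summed UMIs and to 0.17 with the deposited values, and the co-detection ratio of 24PHAS_NO63 and 24PHAS_NO156 in the bHLH pool went from 1.15 to 0.828 at 5000 UMIs. Depth limits the 31 sparse loci, with 34 and 36 UMIs in all.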
